A study of Mus musculus with 6 samples.

Results

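The cyclic nucleotide phosphodiesterases are the enzymes that break down cAMP and cGMP, the 2 second messengers of heart muscle and vessels. A list of 10 of them was followed, Pde1c, Pde2a, Pde3a, Pde3b, Pde4a, Pde4b, Pde4d, Pde5a, Pde7b and Pde9a, chosen with the comparison of treated and untreated hearts already known. For that reason the differences below describe the members, and no test on them is offered as support. A gene counted as measured where a row of the array was annotated with its symbol and no other, which held for 9 of the 10 members out of 30063 genes in all. The row that carries Pde4d is annotated with a microRNA as well, so Pde4d was not analysed here. Each of the other 9 genes had a single row.

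Heart ventricles of 6 male mice were profiled, 1 Affymetrix array per mouse. Every mouse was of the "Het" genotype (utrn+/-; mdx) on a C57BL/10 background, which means that all 6 lacked dystrophin and had 1 working copy of its relative utrophin. The finerenone group (n = 3) ate chow with 100 ppm of finerenone, a non-steroidal blocker of the mineralocorticoid receptor, from 4 weeks of age. The untreated group (n = 3) ate the same chow without the drug, and tissue was taken at 20 weeks of age in both groups. There was no healthy strain among the samples, so a difference between the groups says nothing about the distance of either from a normal heart. RNA integrity numbers lay above 7.3, per the labels' protocols.

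Adenylyl cyclases make cAMP and guanylyl cyclases make cGMP, and phosphodiesterases end both signals. The families differ in what they cut and in what regulates them: Pde1 enzymes are switched on by calcium and calmodulin, Pde2a cuts cAMP faster when cGMP binds it, Pde3 enzymes cut cAMP and are held back by cGMP, Pde4 and Pde7 enzymes are specific for cAMP, and Pde5a and Pde9a are specific for cGMP. In heart muscle the cAMP arm runs from beta-adrenergic receptors to protein kinase A (PKA), which phosphorylates calcium-handling proteins, and phosphodiesterases held near anchoring proteins keep these signals local.

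Of the 9 measured genes, 3 had groups that did not overlap. Pde3a and Pde2a gave lower signal in the treated hearts and Pde7b gave higher signal, each by about 0.5 to 0.6 on the log2 scale of the deposited values. The other 6 genes (Pde1c, Pde3b, Pde4a, Pde4b, Pde5a and Pde9a) overlapped between the groups. All differences are finerenone minus untreated in log2 signal, with the standard error (SE) of the limma fit across all genes.

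The promoters of the 2 genes that differed in opposite directions and had an entry, Pde7b and Pde2a, are shown with that of Pde4b, the member whose windows held both kinds of response motif that were searched. They are the 250 bases before an annotated transcription start in RefSeq (GRCm38.p6), written 5′ to 3′ on the strand of the gene. The Pde7b window lies at chr10:20548329-20548578 on the minus strand, the Pde2a window, before the most upstream of its 5 listed starts, at chr7:101421441-101421690 on the plus strand, and the Pde4b window, before the first of its 4 listed starts, at chr4:102421305-102421554 on the plus strand. Capitals mark the core of the cAMP response element (TGACG, or CGTCA on the other strand) and the half-site of the element bound by gluco- and mineralocorticoid receptors (AGAACA, or TGTTCT on the other strand).
Pde7b: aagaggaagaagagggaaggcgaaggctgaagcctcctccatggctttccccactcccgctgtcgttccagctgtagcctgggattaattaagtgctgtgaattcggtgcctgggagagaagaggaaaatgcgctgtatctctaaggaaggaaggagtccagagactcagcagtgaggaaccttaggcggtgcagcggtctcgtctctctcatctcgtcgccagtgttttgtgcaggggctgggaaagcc
Pde2a: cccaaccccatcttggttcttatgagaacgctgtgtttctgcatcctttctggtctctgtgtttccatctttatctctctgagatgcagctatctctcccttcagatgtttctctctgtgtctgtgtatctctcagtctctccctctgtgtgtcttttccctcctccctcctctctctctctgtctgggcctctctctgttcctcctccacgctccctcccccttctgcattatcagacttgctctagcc
Pde4b: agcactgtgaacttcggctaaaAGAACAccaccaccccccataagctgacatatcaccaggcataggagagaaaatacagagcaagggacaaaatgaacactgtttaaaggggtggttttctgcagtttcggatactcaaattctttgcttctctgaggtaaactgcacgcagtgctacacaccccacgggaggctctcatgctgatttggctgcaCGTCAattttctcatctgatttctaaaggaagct
Neither the Pde7b nor the Pde2a window printed here holds a match to these letters. Across the 17 windows listed for 6 of the measured members, 2 held the cAMP core (1 of Pde4a and 1 of Pde4b) and 5 held the receptor half-site (2 of Pde1c, 1 of Pde2a and 2 of Pde4b). Of 32851 promoter windows of the same length, 17.8% held the core and 16.1% the half-site, both strands searched. The full palindromes TGACGTCA, which contains the core, and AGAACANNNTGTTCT, which contains the half-site, were in 0 of the 17 windows and in 1.5% and 0.009% of all windows. A match describes letters and not binding, and windows of 1 gene are not independent.

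Pde3a is the cGMP-inhibited cAMP phosphodiesterase of heart muscle, vascular smooth muscle and platelets and the target of milrinone. Its log2 signal was 10.54, 10.52 and 10.73 in the treated hearts and 11.29, 10.90 and 11.09 in the untreated ones. The 3 treated values all lay below the lowest untreated one, with means of 10.60 ± 0.12 and 11.09 ± 0.19 (SD, n = 3 each). The difference was -0.50 ± 0.12 (SE), or -29.2% on the linear scale. Untreated replicate 1 was the highest of the 6, and without it the difference was -0.40.

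Pde3b, the second Pde3 gene, known for its part in the action of insulin in fat and liver, gave 6.81, 6.52 and 6.75 in treated and 6.71, 6.59 and 6.93 in untreated hearts. The groups overlapped over most of their range and the difference was -0.05 ± 0.13 (SE). It turned to 0.03 without finerenone replicate 2 and to 0.04 without untreated replicate 3. The Pde3 pair therefore had differences of -0.50 and -0.05, and whether these differ from each other was not tested.

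Pde2a, the cGMP-stimulated phosphodiesterase found in heart muscle and in endothelium, measured 10.10, 9.48 and 9.73 in treated hearts against 10.50, 10.20 and 10.47 in untreated ones. Finerenone replicate 1 came within about 0.1 of the lowest untreated heart and the other treated hearts lay further below. Means were 9.77 ± 0.31 and 10.39 ± 0.16 (SD, n = 3 each). The difference of -0.62 ± 0.17 (SE), or -35.1% on the linear scale, was the most negative among the 9 genes. With single arrays left out it ran from -0.79 (without finerenone replicate 1) to -0.48 (without finerenone replicate 2).

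Pde7b, a cAMP-specific phosphodiesterase that the Pde4 inhibitor rolipram does not block, was the one member whose treated values all lay above the untreated ones. It measured 10.19, 10.15 and 10.14 there and 9.73, 9.55 and 9.62 in the untreated hearts. The treated values lay within 0.05 of each other. Means were 10.16 ± 0.02 and 9.63 ± 0.09 (SD, n = 3 each), a difference of 0.53 ± 0.08 (SE) and a signal 44.0% higher. Leaving out single arrays moved it only between 0.48 and 0.58.

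**Figure D1:**
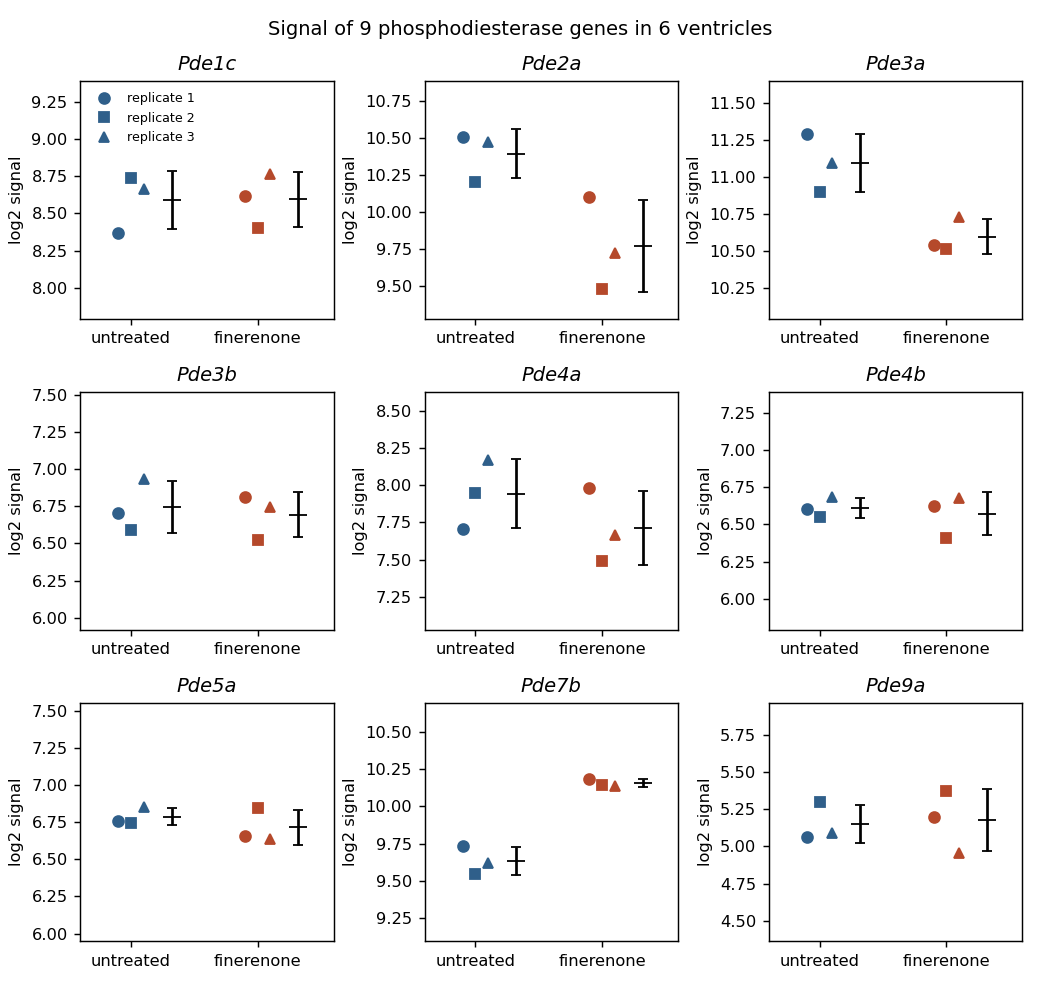
Log2 signal (vertical axis, equal in span in every panel) of the 9 measured phosphodiesterases in 3 untreated (blue) and 3 finerenone-treated (red) ventricles, with 1 marker shape per replicate number and the group mean and SD as a black bar. The groups are apart in Pde2a, Pde3a and Pde7b and overlap in the other 6 panels.

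The Pde4 enzymes are cAMP-specific, and in the heart they sit near the beta-adrenergic receptor and the ryanodine receptor. Pde4a gave 7.98, 7.49 and 7.66 in treated and 7.71, 7.94 and 8.17 in untreated hearts. One treated heart, replicate 1, lay above 2 of the untreated ones, and the difference was -0.23 ± 0.17 (SE). It depended on single arrays, from -0.36 without finerenone replicate 1 to -0.12 without untreated replicate 3. Pde4b, which is induced by cAMP itself in many cells and is prominent in leukocytes, gave 6.62, 6.41 and 6.68 against 6.60, 6.55 and 6.68. The groups overlapped, with a difference of -0.04 ± 0.10 (SE) that turned to 0.04 without finerenone replicate 2.

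Pde1c, the calcium-activated form of heart muscle that cuts both messengers, measured 8.62, 8.40 and 8.77 in treated hearts and 8.37, 8.74 and 8.66 in untreated ones. Its groups were centred on nearly the same level, 8.59 ± 0.18 and 8.59 ± 0.20 (SD, n = 3 each). The difference was 0.01 ± 0.14 (SE), and its sign turned in 7 of 15 alternatives. Some of those 15, such as the filters on dim genes, could not change it.

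Pde5a, the cGMP-specific target of sildenafil, is best known from smooth muscle. Its signal was 6.66, 6.85 and 6.63 in treated and 6.76, 6.75 and 6.85 in untreated hearts, a difference of -0.07 ± 0.09 (SE) with overlapping groups. It was -0.14 without finerenone replicate 2 and -0.03 without finerenone replicate 3. Pde9a, a cGMP-specific form linked to natriuretic peptide signals in heart muscle, gave 5.20, 5.37 and 4.96 against 5.07, 5.30 and 5.09. Both groups lay about the median of the negative control probes, which ran from 5.04 to 5.33 across the arrays, so Pde9a was at background signal. Its difference was 0.02 ± 0.13 (SE). The negative control probes spread widely, and a high percentile of their signal ran from 8.35 to 8.73 across the arrays. Pde3b, Pde4a, Pde4b and Pde5a lay below that level in every array, Pde1c lay about it, and Pde2a, Pde3a and Pde7b lay above it. Whether the dimmer members stood above background was not tested, so their overlap is not read as unchanged expression. Both members specific for cGMP had differences under their SE, and the 3 whose groups stood apart, Pde2a, Pde3a and Pde7b, all cut cAMP, as do the remaining 4 (Pde1c, Pde3b, Pde4a and Pde4b), whose groups overlapped.

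The count of members is set here beside the same count over all genes. Of 9 members, 6 were lower and 3 higher, with a median difference of -0.05, while 41.8% of all genes were lower, with a median of 0.03. Groups did not overlap in 3 members, 2 lower and 1 higher, and in 12.3% of all genes (4.17% lower and 8.17% higher). In limma, 0 of 9 members passed a Benjamini-Hochberg adjusted p of 0.05, as did 0% of all genes, and 3 of 9 had an unadjusted p below 0.05, 2 lower and 1 higher, as did 7.81% of all genes (2.12% lower and 5.69% higher). Since the members were picked on this contrast, nothing is read from these counts. The number of lower members ran from 5 to 8 over the 15 alternatives.

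**Figure D2:**
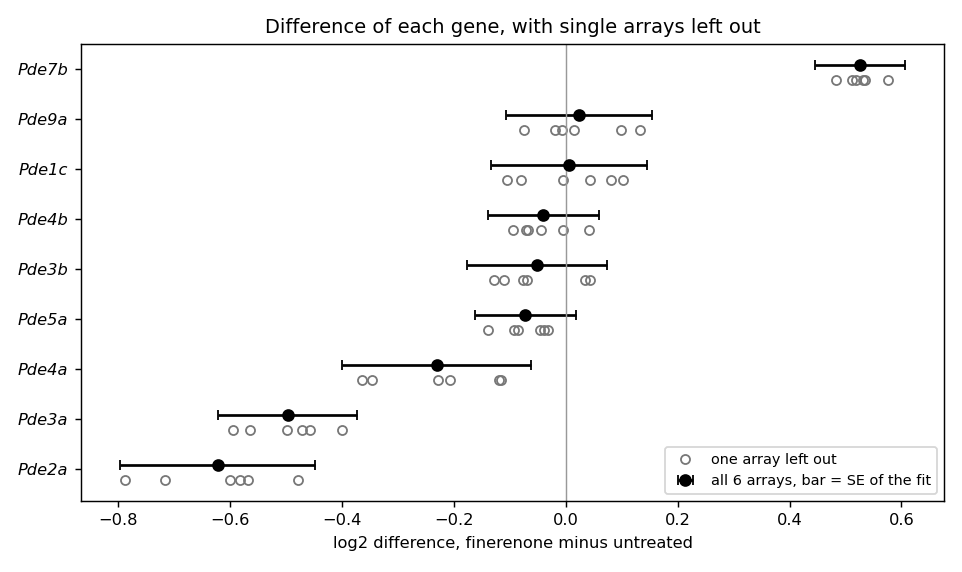
Log2 difference, finerenone minus untreated, of each of the 9 genes from all 6 arrays (black, bar = SE of the fit) and with each array left out in turn (open circles). Pde2a, Pde3a, Pde4a and Pde5a stay below 0 and Pde7b above 0 in all 6 reduced sets, while the open circles of Pde1c, Pde3b, Pde4b and Pde9a lie on both sides of 0.

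The spread within groups is given as a description only, since it enters the SE of the comparison that was known when the members were chosen. Pde7b had a pooled within-group SD of 0.07, larger than that of 5.5% of the 2225 genes whose mean signal lay within 1 log2 unit of its own. Pde5a (SD 0.09, percentile 21.4) and Pde4b (0.11, percentile 31.2) also varied little, and Pde3a was at percentile 36.8 with an SD of 0.16. Pde4a (0.24, percentile 77.2) and Pde2a (0.25, percentile 70.9) varied most from mouse to mouse. After quantile normalization Pde7b stood at percentile 13.7 and Pde3a at 62.0. Of the 6 arrays, finerenone replicate 2 gave the lowest signal of 5 members and untreated replicate 3 the highest of 4.

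Over all 65956 transcript clusters, with or without a gene symbol, the 6 profiles correlated between 0.989 and 0.994. Untreated replicate 1 had the lowest mean correlation with the others (0.990). Limma called 0 of 30063 genes, with a smallest adjusted p of 0.597. Those with an unadjusted p below 0.05 numbered 2347, of which 27.1% were lower, a share of 48.9% after quantile normalization and 41.0% after cyclic loess. The cardiac muscle markers Myh6 (19.60 to 19.65) and Tnnt2 (19.92 to 19.93) were near the top of the scale in every array, and the ventricular light chain Myl2 measured 11.94 to 12.66. Each array is a separate biological replicate per the sample titles, with no litter or scan date given.

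Marker lists of cell types that can hold phosphodiesterases were set beside these values, and the list means per array overlapped between the groups in each of the 4 lists given here. All 10 measured endothelial markers had a lower mean in the treated hearts (median difference -0.39), with list means from 11.22 to 11.56 in treated and from 11.53 to 12.13 in untreated hearts. Without untreated replicate 1, 8 of the 10 were lower, with a median of -0.26, and without finerenone replicate 1, 9 were. Smooth muscle and pericyte markers were lower in 8 of 9 (median -0.19; 9.54 to 9.81 against 9.71 to 10.11). Their median was -0.35 after quantile normalization, and with single arrays left out it ran from -0.29 without untreated replicate 2 or finerenone replicate 1 to -0.13 without finerenone replicate 2. Macrophage markers were higher in 11 of 11 (median 0.31; 8.72 to 9.10 against 8.42 to 8.84), and the median was 0.17 without finerenone replicate 1 or untreated replicate 3, 10 of 11 being higher, and 0.21 without finerenone replicate 3. Cardiomyocyte markers had no steady direction: 5 of 7 were higher (median 0.01). Their list means were 17.44 to 17.59 in treated and 17.38 to 17.63 in untreated hearts. The number higher was 2 after quantile normalization (median -0.01) and 3 after median centring. It was 1 after cyclic loess (median -0.13) or without untreated replicate 1 (median -0.02). Of these markers, Myh6 and Tnnt2 lay near the highest value of the arrays and had little room to differ. Myl3, whose own difference is the median of 0.01, stayed between 16.81 and 16.85 in every array. The counts of higher markers thus rest partly on genes that hardly varied. Limma called 0 markers of the 4 lists after adjustment. Its unadjusted p was below 0.05 for 2 of 10 endothelial and 1 of 9 smooth muscle markers, all lower. The same held for 3 of 11 macrophage markers, all higher, and for 0 of 7 cardiomyocyte markers. Over all genes the share was 7.81% (2.12% lower and 5.69% higher). In ventricle RNA, fewer cells of a type and less RNA per cell cannot be told apart.

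Set against the endothelial mean of the same array, Pde2a was -1.46, -1.89 and -1.50 in treated and -1.63, -1.33 and -1.37 in untreated hearts. Those groups overlapped, and the difference of -0.62 became -0.17, which ran from -0.27 without untreated replicate 1 to -0.03 without finerenone replicate 2. Pde3a against the endothelial mean was -1.01, -0.86 and -0.49 in treated and -0.84, -0.63 and -0.75 in untreated hearts. These groups overlapped as well, and the difference of -0.05 had no steady sign, at -0.20 without finerenone replicate 3 and 0.06 without finerenone replicate 1. Against the smooth muscle and pericyte mean Pde3a differed by -0.25, with 0.91, 0.97 and 0.92 in treated and 1.18, 1.19 and 1.18 in untreated hearts, which did not overlap. Pde2a against that mean differed by -0.38 with overlapping groups, from -0.55 without finerenone replicate 1 to -0.28 without finerenone replicate 3. Pde7b differed in the other direction from both lists, and its difference was 0.97 against the endothelial and 0.77 against the smooth muscle mean, with no overlap. These ratios were computed after the values had been seen, and only to lists with a lower mean in treated hearts. The list means differed by -0.45 (endothelial) and -0.25 (smooth muscle and pericyte). Each ratio difference is the gene's own minus that of the list, so it had to lie above the gene's own. The cardiomyocyte list mean differed by 0.01 and the platelet list mean by 0.44, both with overlapping groups. The platelet median was 0.35 with all arrays and 0.0068 without finerenone replicate 2. In that array the platelet marker Ppbp measured 12.55, against 8.95 to 10.13 in the others. No ratio to the cardiomyocyte or the platelet list was computed, and the part of cell composition in the result was not tested.

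**Figure D3:**
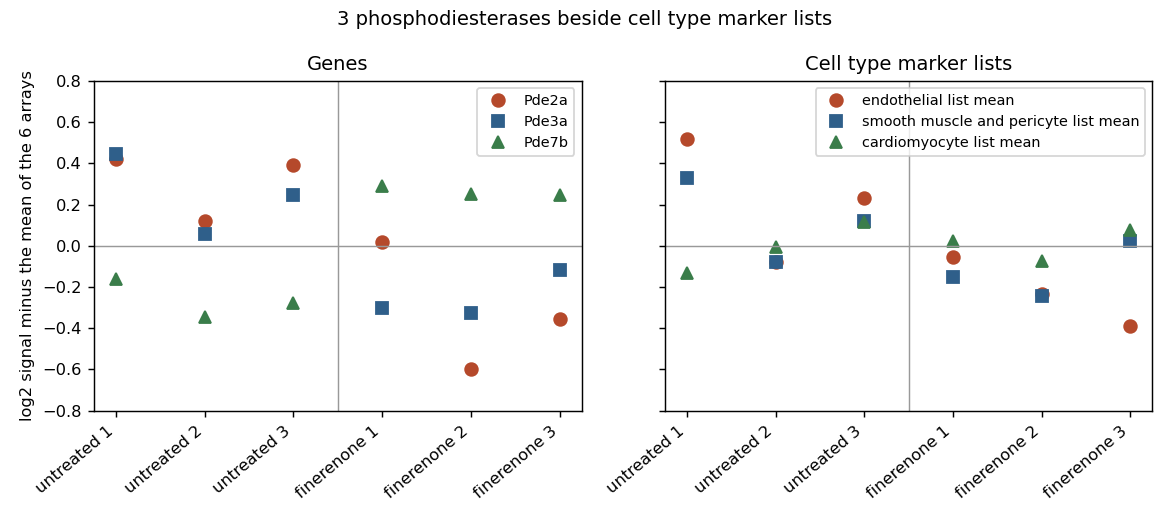
Log2 signal of Pde2a, Pde3a and Pde7b (left) and mean log2 signal of 3 marker lists (right) in each of the 6 hearts, each series minus its own mean over the arrays. Pde2a, Pde3a and the endothelial list are all highest in untreated replicate 1, and Pde7b is above its mean in the 3 treated hearts and below it in the 3 untreated ones.

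The genes whose centred profile over the 6 arrays lay nearest to that of Pde3a, among 6358 genes with a mean signal of at least 8, were Klf7, Neo1 and A530016L24Rik. Their root mean square distances were 0.07, 0.08 and 0.08 log2 units. Klf7, a zinc finger transcription factor, ran 9.49, 9.37 and 9.55 in treated and 10.14, 9.61 and 9.88 in untreated hearts. Neo1, the receptor neogenin, ran 10.60, 10.59 and 10.70 against 11.24, 10.86 and 10.92. Both were highest in untreated replicate 1, as Pde3a was. Since these genes were picked for likeness to Pde3a over the same arrays, that peak and the gap between groups follow from the choice.

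Of the 14 other cyclic nucleotide phosphodiesterases, all measured, signal was higher in 7 and lower in 7 (median 0.01), and 0 passed in limma (0 also at an unadjusted p below 0.05). In 8 of them every array lay below the highest negative control median of 5.33. The widest differences were in Pde7a, the relative of Pde7b, at 0.26 ± 0.28 (SE), and Pde8a, a high-affinity cAMP enzyme, at -0.22 ± 0.15 (SE). Pde7a measured 10.30, 9.66 and 10.78 in treated and 10.06, 9.73 and 10.18 in untreated hearts, so its groups overlapped, and it was at -0.01 without finerenone replicate 3. Pde8a gave 8.98, 9.54 and 9.11 against 9.41, 9.48 and 9.40 and was at -0.38 without finerenone replicate 2 and at -0.10 without finerenone replicate 1. Pde1b and Pde6g were near background and differed by -0.16 and -0.15. The others, Pde1a, Pde4c, Pde6a, Pde6b, Pde6c, Pde6d, Pde6h, Pde8b, Pde10a and Pde11a, lay between -0.05 and 0.08.

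The rest of the pathway was followed in 8 lists. Together with the other phosphodiesterases they held 81 measured genes of 88 listed, of which 0 passed the adjusted threshold in limma. In 8 the unadjusted limma p was below 0.05 (3 higher and 5 lower), beside 7.81% of all genes (5.69% higher and 2.12% lower). Groups did not overlap in 15 of the 81 (18.5%, 5 higher and 10 lower), beside 12.3% of all genes (8.17% higher and 4.17% lower). Some of the genes named below, among them Adcy5, Akap12, Npr1, Crem and Nr4a3, lay in every array below the high negative control percentile of 8.35 to 8.73. Whether they stood above background was not tested.

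For the synthesis of cAMP, signal was higher for 6 of 14 measured genes and lower for 8. The median was -0.11, and 0.02 without untreated replicate 3. These were adenylyl cyclases and G protein subunits, which include the inhibitory Gnai1, Gnai2 and Gnai3, so the count gives no direction of synthesis. Adcy5, a main adenylyl cyclase of heart muscle, measured 7.97, 7.85 and 7.90 in treated and 7.98, 8.26 and 8.22 in untreated hearts. Its groups did not overlap, by a margin of about 0.01, and the difference was -0.25 ± 0.10 (SE; limma adjusted p = 0.630). Adcy3 (-0.13) and Adcy8 (-0.13) were near background.

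The cAMP effectors were proteins that bind cAMP and the catalytic subunits of PKA. Signal was higher for 7 of the 12 measured and lower for 5 (median 0.01), and the median was -0.08 after quantile normalization. The 2 Popeye proteins that differed went in opposite directions. These membrane proteins bind cAMP and are abundant in heart muscle. Bves, the founding member, measured 12.63, 12.69 and 12.76 in treated and 12.21, 12.36 and 12.29 in untreated hearts, a difference of 0.41 ± 0.08 (SE; limma adjusted p = 0.597). It was 0.24 after quantile normalization and 0.27 after cyclic loess. Popdc2 measured 12.52, 12.39 and 12.38 against 12.68, 12.98 and 13.02, a difference of -0.46 ± 0.12 (SE; limma adjusted p = 0.597). In both genes the groups did not overlap. Rapgef3, the cAMP-activated exchange factor Epac1, differed by -0.23 ± 0.12 (SE), and by -0.11 without untreated replicate 3.

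PKA anchoring proteins hold the kinase, and often a phosphodiesterase, at a site in the cell. Of 11 measured, 9 were lower and 2 higher, with a median of -0.10 that kept its sign in all 15 alternatives (-0.15 to -0.08). Akap12 (gravin) measured 7.33, 7.13 and 7.16 in treated and 7.68, 7.72 and 8.06 in untreated hearts, a difference of -0.61 ± 0.13 (SE; limma adjusted p = 0.597). Akap6, the muscle anchoring protein of the nuclear envelope that binds Pde4d, measured 11.78, 11.33 and 12.00 against 12.13, 12.10 and 12.33. Its groups were apart, with a difference of -0.48 ± 0.18 (SE; limma adjusted p = 0.610) that was -0.30 without finerenone replicate 2. Akap7, which ties PKA to calcium handling proteins, went the other way at 0.20 ± 0.10 (SE) with overlapping groups.

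For cGMP, signal was lower for 5 of 7 synthesis genes and higher for 2, and their median was -0.17 (-0.21 to -0.09 over the alternatives). Npr1, the receptor cyclase for the atrial and brain natriuretic peptides, measured 7.33, 7.23 and 7.23 in treated and 7.63, 7.39 and 7.39 in untreated hearts. Npr2, the receptor for C-type natriuretic peptide, measured 8.93, 8.91 and 8.87 against 9.10, 8.98 and 9.14. Neither overlapped, and the differences were -0.20 ± 0.10 and -0.17 ± 0.08 (SE; limma adjusted p = 0.668 and 0.670). Without untreated replicate 1 that in Npr1 was -0.12. The inducible nitric oxide synthase Nos2 (-0.23) lay near background. Among 5 cGMP effectors the median was -0.01, with 2 higher and 3 lower. That median is the difference of Hspb6, a gene that hardly varied between arrays. The effectors include Prkg1, the cGMP-dependent kinase, at 0.27 ± 0.14 (SE), which was 0.40 without finerenone replicate 1. Also among them were its substrate Mrvi1 at -0.17 ± 0.08 and Vasp at -0.13 ± 0.10 (SE). Mrvi1 (5.23 to 5.54) and Vasp (5.41 to 5.76) lay near background.

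PKA targets of contraction had a median of -0.01, with 3 of 7 higher and 4 lower. Quantile normalization gave a list median of -0.26, cyclic loess one of -0.15, and leaving out untreated replicate 1 gave -0.13. Cacna1c, the pore of the L-type calcium channel, differed by -0.28 ± 0.23 (SE), the ryanodine receptor Ryr2 by -0.20 ± 0.28 and the myosin-binding protein Mybpc3 by -0.20 ± 0.26, each with overlapping groups. Cacna1c was at -0.53 without finerenone replicate 3 and at -0.14 without finerenone replicate 2. Ryr2 was at -0.46 without finerenone replicate 3 and at 0.02 without finerenone replicate 2, and Mybpc3 at -0.48 without untreated replicate 1 and at -0.01 without untreated replicate 3. The exporters Abcc5 (0.09) and Abcc4 (-0.01) had a median of 0.04.

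Transcripts that cAMP induces in many cells did not move one way, with 3 of 9 higher and 6 lower and a median of -0.13. That median was -0.45 without finerenone replicate 1 and close to 0 without untreated replicate 1, finerenone replicate 2 or finerenone replicate 3. Crem, a cAMP-responsive transcription factor whose short form ICER represses its own targets, measured 6.72, 6.49 and 6.54 in treated and 6.25, 6.32 and 6.34 in untreated hearts, a difference of 0.28 ± 0.09 (SE; limma adjusted p = 0.597). Nr4a3, an orphan nuclear receptor, measured 6.98, 6.75 and 7.32 against 6.09, 6.72 and 6.40, a difference of 0.61 ± 0.20 (SE; limma adjusted p = 0.600). Rgs2, an inhibitor of G protein signals, was lower in treated hearts, with 10.15, 10.16 and 10.10 against 10.70, 11.25 and 10.48, a difference of -0.67 ± 0.19 (SE; limma adjusted p = 0.597). The groups of all 3 genes were apart. Rgs2 was at -0.45 without untreated replicate 2.

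**Figure D4:**
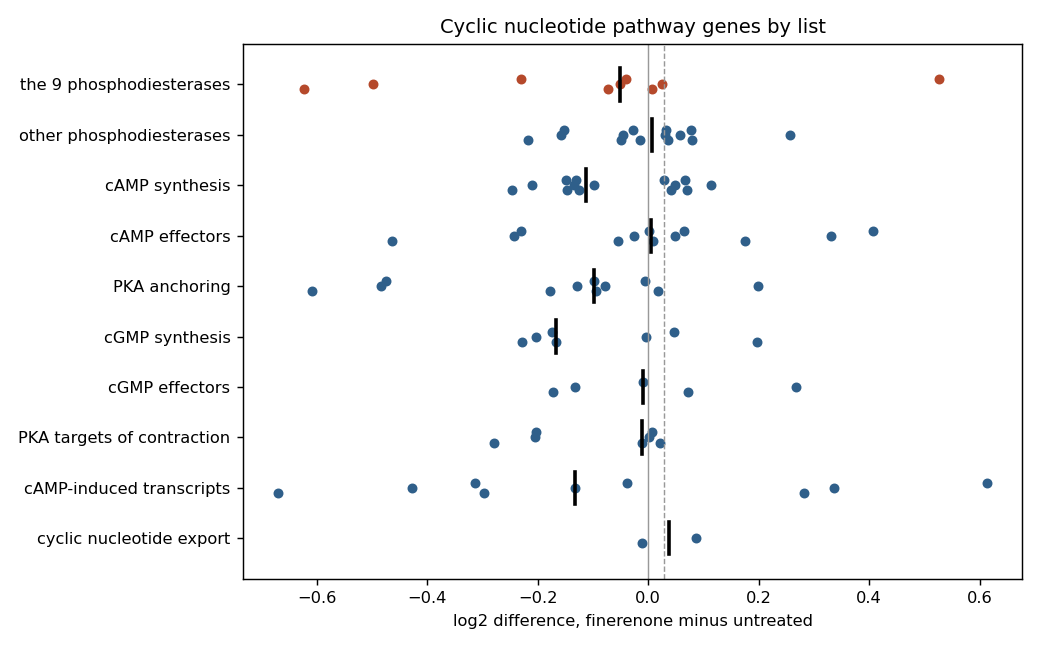
Log2 difference, finerenone minus untreated, of each measured gene (points) in the 9 phosphodiesterases and the 9 pathway lists, with the median of each list as a black bar, 0 as a solid line and the median of all genes as a dashed line. The phosphodiesterases span -0.62 to 0.53, and the other phosphodiesterases span -0.22 to 0.26.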

How the data were processed

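The deposited log2 values are per-probe-set summaries. The submitters' processing notes name RMA, Transcriptome Analysis Console and Affymetrix Expression Console for the steps by which the authors made them. For versions, build and any later transformation, nothing is stated in the labels. The highest value was 19.93, so genes near it had little room to differ. Rows with a single symbol in the platform annotation (30604 of 65956 transcript clusters) were named, with symbols updated to RefSeq genes of GRCm38.p6, and the row with the highest mean was kept for the 429 genes with several. No filter on low signal was applied. The 30063 genes were fitted with limma 3.58.1 in R 4.3.3 (lmFit, eBayes, two-sided), which was tested on simulated data, with Benjamini-Hochberg adjustment over all of them. With 3 arrays per group, their number limits the precision.

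The members, lists, markers and tests were chosen with earlier results of these data known. Named were all measured members and other phosphodiesterases, up to 3 genes per pathway list by smallest unadjusted p, the 3 genes nearest to Pde3a in profile and 3 cardiac markers. The remaining marker lists had medians of 0.17 (fibroblast), -0.12 (adipocyte), -0.08 (T and NK cell), 0.35 (platelet), 0.25 (atrial) and -0.16 (skeletal muscle). The platelet median was 0.0068 without finerenone replicate 2. Alternatives covered normalization, filters on dim genes, averaging of rows, the variance prior, array weights, a replicate block and leaving out each array. Promoters for 6 of the 9 measured members were found in the RefSeq table. Python 3.11.15 handled tables, motifs and plots.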

Additional observations from a re-analysis of the deposited data

How the results depend on the processing

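Pde2a, Pde3a, Pde4a, Pde5a and Pde7b kept their sign in all 15 alternatives of processing and of single arrays left out. Among these, the filters on dim genes, averaging of rows, the variance prior and the replicate block could not change a member's difference. A sign could turn only with another normalization, array weights or an array left out. Excluding leave-one-out, Pde3a ran from -0.60 to -0.48, Pde2a from -0.71 to -0.60 and Pde7b from 0.45 to 0.54. Signs turned in 13 values of the other members. Pde1c was -0.045 after quantile normalization, -0.0093 after median centring, -0.030 after cyclic loess and -0.021 with array weights, and with single arrays left out it ran from -0.11 to 0.10. Leaving out single arrays took Pde3b from -0.13 to 0.044, Pde4b from -0.095 to 0.042 and Pde9a from -0.074 to 0.13, and the cause was not tested. The count of genes past the threshold was 0 in limma in all 15. With the replicate number as a block it was also 0. Such a block leaves each difference as it was, so Pde3a stayed at -0.50. Deviations of same-numbered arrays correlated at -0.15, 0.06 and 0.06, and those of differently numbered arrays at -0.17 to 0.12. The labels do not say whether the numbers pair the mice, and so few arrays cannot decide it. The medians of 6 pathway lists other than PKA anchoring and cGMP synthesis turned sign in at least 1 alternative, and so did that of the other phosphodiesterases. The filter at a mean signal of 6 removed Pde9a.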

Other observations

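Some pathway genes hardly varied between arrays. Hspb6, the small heat shock protein that PKA and the cGMP-dependent kinase phosphorylate, gave 7.84 in 5 arrays and 7.87 in untreated replicate 2. It was 7.842 alike in finerenone replicate 3 and in untreated replicates 1 and 3. Whether its probe set responds to the amount of transcript was not tested. Pln, the PKA-regulated inhibitor of the calcium pump, lay between 19.46 and 19.48 in all 6, close to the highest value of the arrays, and differed by 0.01 ± 0.07 (SE). Among the cAMP effectors, Hcn2, a pacemaker channel subunit, gave 5.78 in untreated replicate 1 and 6.53 to 6.77 in the other arrays. The catalytic PKA subunit Prkaca was likewise lowest in untreated replicate 1, at 12.52 against 12.76 to 13.32 elsewhere. These genes were singled out after their values had been seen.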
